A study of Homo sapiens with 24 samples.

Results

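The data describe 9 genes of the transforming growth factor beta (TGF-beta) pathway in human HEK293A cells: the ligand genes TGFB1 and TGFB2, the receptor genes TGFBR1 and TGFBR2, the signal carrier SMAD3, the inhibitory SMAD6 and SMAD7, and the SMAD corepressors SKI and SKIL. They were chosen by gene symbol, and all 9 were found among the 58266 symbols of each gene table and among the 15828 genes tested. HEK293A cells grow attached and come from human embryonic kidney. Messenger RNA was profiled in 24 libraries of cells seeded on fibronectin-coated hydrogels, and the question was how expression answers the stiffness of the matrix and what the RAP2 GTPases and the Hippo pathway contribute. The 4 genotypes were a line with the small GTPase genes RAP2A, RAP2B and RAP2C knocked out (RAP2 tKO), one without LATS1 and LATS2 (LATS dKO), one without YAP and TAZ (YAP/TAZ dKO) and wild-type cells (WT). Each was grown on a soft gel of 1 kPa and a stiff gel of 40 kPa, in 3 libraries a group that the series text calls biological replicates. All groups shared serum-containing medium and received no other treatment. The sources used here give neither the method of editing nor the number of clones per line. With bulk RNA, fewer cells of a kind and less RNA per cell cannot be told apart.

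TGF-beta ligands are secreted in a latent form and, once activated, bind the type II receptor TGFBR2, which recruits and phosphorylates the type I receptor TGFBR1. That kinase phosphorylates SMAD2 and SMAD3, which join SMAD4 and bind DNA in the nucleus. SMAD7 and SKIL are classic early targets of the pathway that feed back on it, and the pathway is known to meet Hippo signalling, in which the kinases LATS1 and LATS2 keep the transcriptional coactivators YAP (gene YAP1) and TAZ (gene WWTR1) in check.

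The depth estimated from the deposited confidence intervals lay between 18.9 and 41.2 M fragments a library (median 31.8 M), and 13741 to 14418 genes had at least 1 FPKM, that is, fragments scaled to transcript length and library depth. Libraries stood apart in 2 groups on 40 kPa, replicate 3 of RAP2 tKO and replicate 1 of LATS dKO. Their deviation from the group mean fell with a gene's GC content (rank correlation -0.60 and -0.57 across genes, which are not independent), and they are called the GC-skewed libraries here. In the other libraries that correlation lay between -0.33 and 0.54. The members cover nearly the whole range of GC content, with SKIL at percentile 0.618 of the genes tested, TGFB2 at 11.6, TGFBR1 at 11.8, TGFBR2 at 47.1, SMAD3 at 57.4, SMAD7 at 83.1, SMAD6 at 83.8, SKI at 86.6 and TGFB1 at 94.3. As a check of the labels, YAP1 averaged 6.13 FPKM in YAP/TAZ dKO and 31.3 FPKM in WT, WWTR1 10.4 FPKM in YAP/TAZ dKO and 26.8 FPKM in WT, and LATS1 5.44 FPKM in LATS dKO and 12.6 FPKM in WT. LATS2 averaged 3.30 FPKM in LATS dKO and 2.47 FPKM in WT, RAP2A 6.57 FPKM in RAP2 tKO and 8.35 FPKM in WT, RAP2B 5.49 FPKM in RAP2 tKO and 4.43 FPKM in WT, and RAP2C 21.1 FPKM in RAP2 tKO and 18.5 FPKM in WT. An edit that leaves the transcript in place does not show in such values. WWTR1 also lies in a stretch of chromosome 3 whose genes were mostly lower in YAP/TAZ dKO, described with SKIL below. The keratin genes KRT8, KRT18 and KRT19 passed 1 FPKM, whereas the epithelial markers EPCAM and CDH1 did not, and the endothelial markers found, 4 in number, all stayed below 1 FPKM. Of 5 fibroblast markers COL1A1 and LUM passed 1 FPKM, and of 5 immune markers CD68 did.

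FPKM is a level per length of transcript, so genes may be set side by side on it. Averaged over the 24 libraries, SKI stood highest at 66.1 FPKM and TGFB1 next at 36.3 FPKM. SMAD7 averaged 24.3 FPKM, SMAD3 18.1 FPKM and SMAD6 16.1 FPKM, while SKIL averaged 8.87 FPKM and TGFBR1 8.25 FPKM. TGFBR2 at 3.40 FPKM and TGFB2 at 1.44 FPKM were the lowest of the 9. TGFB2 is also the least precisely measured: the deposited 95% interval had a median half-width of 53.3% of its value and reached 98.7%, against medians between 9.31% and 13.9% for the other 8 genes.

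**Figure D1:**
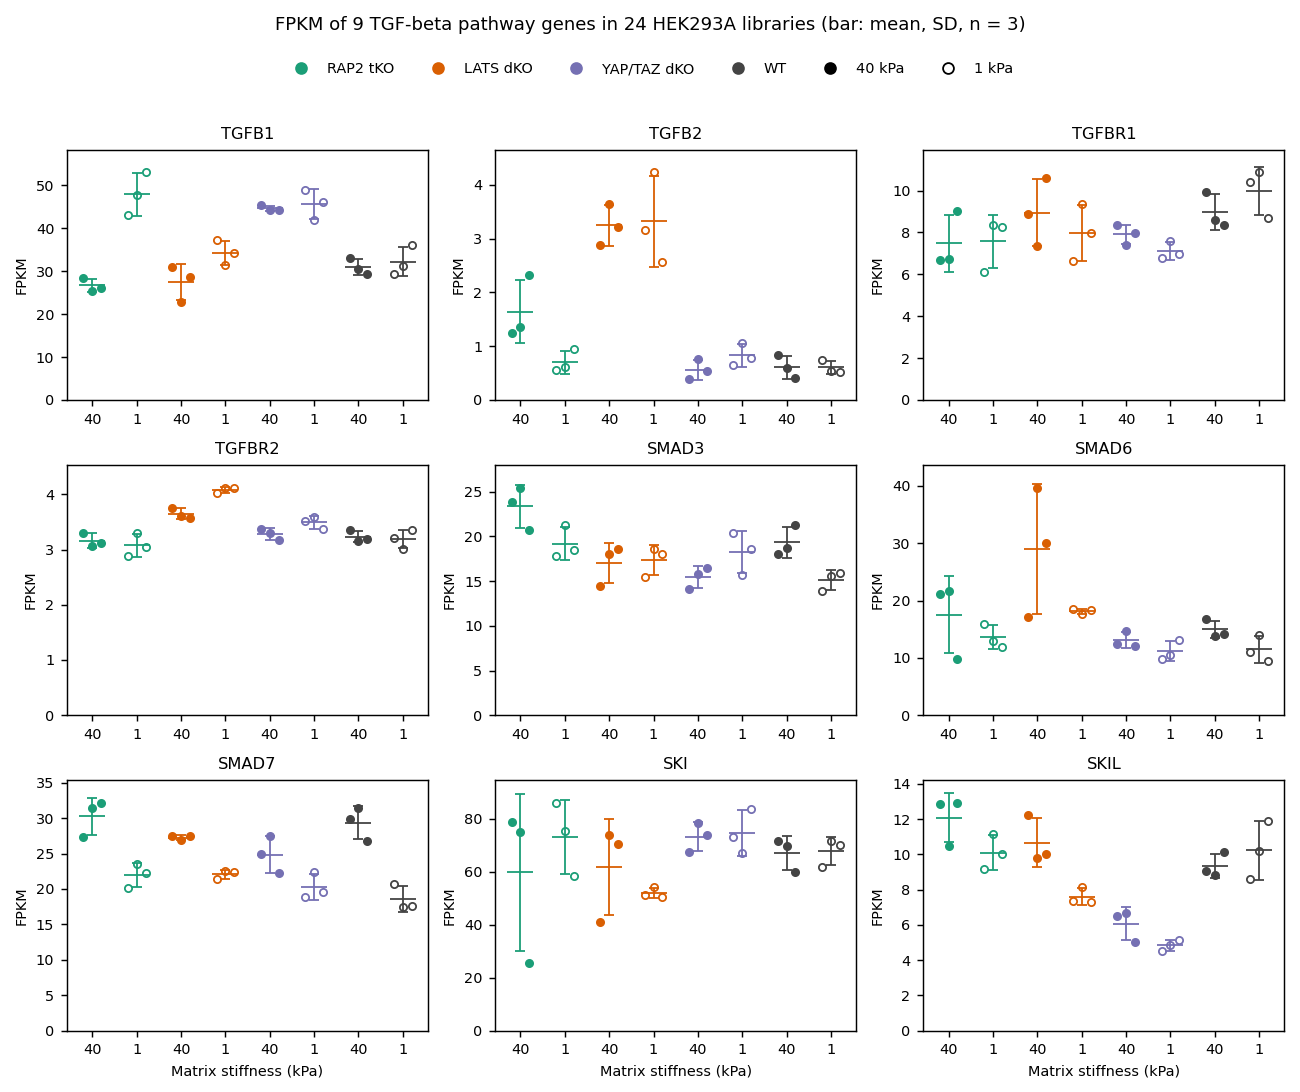
FPKM of each of the 9 genes (y axis, from 0) in each library, by genotype and stiffness in kPa (x axis); filled points are 40 kPa, open points 1 kPa, and bars give the mean and SD of n = 3 libraries. The mean of SMAD7 is higher on 40 kPa in every genotype, TGFB2 is highest in LATS dKO and SKIL is lowest in YAP/TAZ dKO.

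Changes were tested with limma on log2(FPKM + 1) with Benjamini-Hochberg adjustment over all 15828 genes, with calls made at an adjusted p below 0.05. Fold changes on that scale understate the change of a gene with a low level, which here touches TGFB2 most. Stiffness was compared within each genotype as 40 over 1 kPa. In WT cells 1 of the 9 genes was called, SMAD7, where 0.986% of all genes tested were called. In RAP2 tKO cells 3 of 9 were called, SMAD7 and TGFB2 higher and TGFB1 lower on 40 kPa, where the share over all genes was 3.87%. In LATS dKO cells 0 of 9 were called (0.708% of all genes), and 5 of the 9 had an unadjusted p below 0.05, as had 12.8% of all genes. In YAP/TAZ dKO cells 0 of 9 were called too (0.347% of all genes), with 2 at an unadjusted p below 0.05, as were 7.70% of all genes. The median log2 change of the 9 genes was -0.0044 in WT, 0.24 in RAP2 tKO, 0.15 in LATS dKO and -0.02 in YAP/TAZ dKO, beside -0.03, -0.04, -0.03 and -0.0081 over all genes tested.

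**Figure D2:**
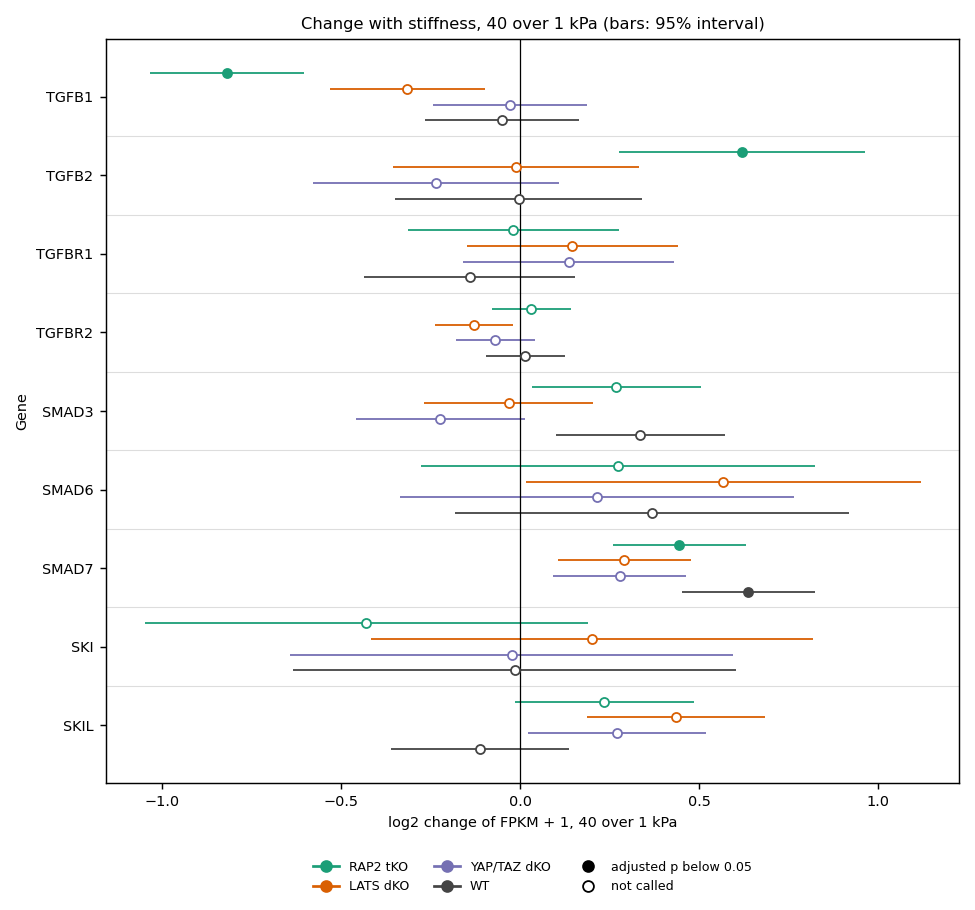
Log2 change of FPKM + 1 between 40 and 1 kPa (x axis) for each gene (y axis) in the 4 genotypes, with 95% intervals; filled points have an adjusted p below 0.05. SMAD7 lies right of 0 in all 4 genotypes, and TGFB1 in RAP2 tKO lies farthest left at -0.82.

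Whether a knockout line answered stiffness unlike WT was tested as the difference of the stiffness responses. In each of the 3 such comparisons 0 of the 9 genes were called, and over all genes the called share was 0.0505% for RAP2 tKO, 0.0632% for LATS dKO and 0.392% for YAP/TAZ dKO. At an unadjusted p below 0.05 the number was 2 of 9 for RAP2 tKO, 3 of 9 for LATS dKO and 3 of 9 for YAP/TAZ dKO, beside 6.41%, 9.06% and 8.83% of all genes in the same order.

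The gene called for stiffness in WT was SMAD7 (ENSG00000101665.8, chr18:46446222-46477081 in hg19), an inhibitory SMAD that binds the type I receptor and directs it to degradation. In WT cells it had 29.9, 31.4 and 26.8 FPKM on 40 kPa, against 20.7, 17.4 and 17.6 FPKM on 1 kPa. The groups did not overlap. The log2 change was 0.64 ± 0.0885 (SE; limma adjusted p = 0.000989), a 1.55-fold rise. In RAP2 tKO cells SMAD7 stood at 27.3, 31.4 and 32.1 FPKM on 40 kPa and at 20.2, 23.5 and 22.3 FPKM on 1 kPa, again without overlap, and the log2 change was 0.44 ± 0.0885 (SE; limma adjusted p = 0.00829).

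LATS dKO cells had 27.4, 26.9 and 27.4 FPKM of SMAD7 on 40 kPa and 21.4, 22.5 and 22.4 FPKM on 1 kPa. The groups did not overlap here either, but the change of 0.29 on the log2 scale was not called (limma adjusted p = 0.146). YAP/TAZ dKO cells had 24.9, 27.4 and 22.2 FPKM on 40 kPa and 18.9, 22.4 and 19.6 FPKM on 1 kPa. These groups overlapped in their closest pair of libraries, and the log2 change of 0.28 was not called (limma adjusted p = 0.318). The difference of the SMAD7 response from that of WT was -0.19 in RAP2 tKO (95% interval -0.46 to 0.07), -0.35 in LATS dKO (-0.61 to -0.08) and -0.36 in YAP/TAZ dKO (-0.62 to -0.10), none of them called (limma adjusted p = 0.748, 0.367 and 0.338).

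By genotype, averaged over both gels, SMAD7 was not called in any line, with log2 changes over WT of 0.14 in RAP2 tKO, 0.07 in LATS dKO and -0.06 in YAP/TAZ dKO (limma adjusted p = 0.152, 0.422 and 0.488). On 40 kPa alone, a comparison chosen after seeing the data, it was lower in YAP/TAZ dKO than in WT by 0.23 on the log2 scale (limma adjusted p = 0.0443, with 37.7% of all genes called). The SMAD7 call in WT was lost when the 6 WT libraries were fitted alone (limma adjusted p = 0.0745). That in RAP2 tKO was lost when its 6 libraries were fitted alone (limma adjusted p = 0.315) and without RAP2 tKO on 1 kPa replicate 1 (limma adjusted p = 0.0551).

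TGFB1 (ENSG00000105329.9, chr19:41807491-41859816), the most widely expressed TGF-beta ligand, fell on the stiff gel in RAP2 tKO cells. It had 28.5, 25.5 and 26.1 FPKM on 40 kPa, against 43.0, 47.7 and 53.0 FPKM on 1 kPa. Every library on the stiff gel lay below every library on the soft gel, with a log2 change of -0.82 ± 0.103 (SE; limma adjusted p = 0.00015). WT cells had 33.2, 30.6 and 29.4 FPKM on 40 kPa and 29.4, 31.3 and 36.1 FPKM on 1 kPa. These overlapped, and the change of -0.05 was not called (limma adjusted p = 0.931).

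LATS dKO cells had 31.1, 22.9 and 28.7 FPKM of TGFB1 on 40 kPa and 37.2, 31.4 and 34.2 FPKM on 1 kPa. All 3 stiff libraries were lower, but the log2 change of -0.31 was not called (limma adjusted p = 0.179). YAP/TAZ dKO cells had 45.4, 44.4 and 44.3 FPKM on 40 kPa and 48.9, 42.0 and 46.2 FPKM on 1 kPa, which overlapped. The TGFB1 response of RAP2 tKO differed from that of WT by -0.77 on the log2 scale (95% interval -1.07 to -0.46), which was not called over all genes (limma adjusted p = 0.0823). TGFB1 is among the most GC-rich genes tested. After a correction for GC content the change in RAP2 tKO was -0.48 (limma adjusted p = 0.183), and in its 6 libraries fitted alone the call was lost as well (limma adjusted p = 0.155). Without both GC-skewed libraries the change was -0.80 (limma adjusted p = 0.000491).

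Across genotypes TGFB1 was higher in YAP/TAZ dKO than in WT, by 0.50 ± 0.0726 (SE) on the log2 scale averaged over both gels (limma adjusted p = 1.18e-05). Its 6 YAP/TAZ dKO libraries lay between 42.0 and 48.9 FPKM and all above the 6 WT libraries, which lay between 29.4 and 36.1 FPKM. The call held in all 19 other settings tried, which change the pseudocount, filter, scaling or model or leave out libraries (19 for a genotype comparison and 13 for a stiffness comparison). With the genotypes compared on each gel, which was added after seeing the data, TGFB1 was 0.49 higher on 1 kPa and 0.51 higher on 40 kPa in YAP/TAZ dKO (limma adjusted p = 9e-04 and 0.000592), beside 37.9% and 37.7% of all genes. In RAP2 tKO it was 0.56 higher than in WT on 1 kPa (limma adjusted p = 0.00216, with 6.80% of all genes called), whereas on 40 kPa it stood at -0.21 and was not called (limma adjusted p = 0.224). The 223 genes tested within 5 Mb of TGFB1 had a median log2 change of 0.09 in YAP/TAZ dKO.

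TGFB2 (ENSG00000092969.11, chr1:218519576-218617961), another ligand, binds the type II receptor well only with the help of betaglycan. It was the member with the widest spread between genotypes. LATS dKO cells had 2.88, 3.64 and 3.22 FPKM on 40 kPa, against 0.831, 0.591 and 0.398 FPKM in WT. On 1 kPa LATS dKO cells had 3.17, 4.23 and 2.57 FPKM and WT cells 0.743, 0.545 and 0.527 FPKM. The lowest LATS dKO library, at 2.57 FPKM, was above the highest WT library, at 0.831 FPKM. TGFB2 reached 1 FPKM in all 6 LATS dKO libraries, 3 of RAP2 tKO, 1 of YAP/TAZ dKO and none of WT, so it passed the filter on low values through the lines in which it is high. Averaged over both gels the log2 change was 1.41 ± 0.116 (SE; limma adjusted p = 1.98e-08), called in all 19 settings, and it was 1.41 on either gel alone, where 21.8% of all genes were called on 1 kPa and 22.3% on 40 kPa. The 31 genes tested within 5 Mb of TGFB2 had a median log2 change of 0.09 there. Marker levels differed between the same lines. The summed level of the 5 fibroblast markers averaged 14.5 FPKM in LATS dKO on 40 kPa and 6.29 FPKM in WT on 40 kPa, mostly from COL1A1 and LUM, while DCN was listed at 0 in every library and COL1A2 reached at most 0.0420 FPKM. The 5 epithelial markers summed to 935.4 FPKM in LATS dKO on 40 kPa, 78.7 FPKM in YAP/TAZ dKO on 40 kPa and 490.3 FPKM in WT on 40 kPa. The part of these differences in the results on genotype was not tested.

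In RAP2 tKO cells TGFB2 had 1.25, 1.36 and 2.32 FPKM on 40 kPa, against 0.552, 0.609 and 0.948 FPKM on 1 kPa. The groups did not overlap, and the log2 change with stiffness was 0.62 ± 0.163 (SE; limma adjusted p = 0.0426). The highest of these values, 2.32 FPKM, is from a GC-skewed library. Without RAP2 tKO on 40 kPa replicate 3 the change was 0.44 and not called (limma adjusted p = 0.192), and the call held in 5 of 13 settings. It was also lost without RAP2 tKO on 1 kPa replicate 1 (0.56, limma adjusted p = 0.146), replicate 2 (0.58, adjusted p = 0.118) or replicate 3 (0.72, adjusted p = 0.0526). YAP/TAZ dKO cells had 0.380, 0.753 and 0.542 FPKM on 40 kPa and 0.648, 1.07 and 0.783 FPKM on 1 kPa. These overlapped, as did both WT groups given above, and neither response was called (limma adjusted p = 0.819 and 1).

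Set against WT, TGFB2 was called higher in RAP2 tKO by 0.39 on the log2 scale averaged over both gels (limma adjusted p = 0.0255, 12 of 19 settings), and not without the filter on low values (limma adjusted p = 0.0581). Leaving out WT on 1 kPa replicate 2 or 3, WT on 40 kPa replicate 3, or replicate 3 of RAP2 tKO on either gel ended that call (limma adjusted p between 0.0552 and 0.072). In the comparison on each gel it was 0.70 higher on 40 kPa (limma adjusted p = 0.0106, with 9.05% of all genes called) and 0.08 higher on 1 kPa, not called (limma adjusted p = 0.85). In YAP/TAZ dKO it stood at 0.07 over WT and was not called (limma adjusted p = 0.63).

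The order of TGFB2 levels was LATS dKO on 1 kPa (3.32 ± 0.842 FPKM), LATS dKO on 40 kPa (3.25 ± 0.379 FPKM) and RAP2 tKO on 40 kPa (1.64 ± 0.589 FPKM; SD, n = 3 each). The other 5 groups followed between 0.558 and 0.833 FPKM, and their libraries overlapped. RefSeq (GRCh38.p14) gives 1 promoter window for TGFB2, on the plus strand at chr1:218345086-218345335, the 250 bases before the transcription start. It is printed because TGFB2 set LATS dKO apart most and holds the letters that TEAD factors, the DNA-binding partners of YAP and TAZ, are known to recognise. Capitals mark that motif, CATTCC, searched on both strands and found 185 bases before the start.
TGFB2: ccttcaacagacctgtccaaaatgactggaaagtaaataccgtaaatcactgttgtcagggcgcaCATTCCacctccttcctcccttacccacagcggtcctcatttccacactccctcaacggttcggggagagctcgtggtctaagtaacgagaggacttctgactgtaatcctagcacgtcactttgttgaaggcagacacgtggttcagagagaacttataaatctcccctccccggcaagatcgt
The motif or its reverse complement GGAATG stood in 4175 of 35116 promoter windows of that length (11.9%), so a match of this kind is common, and it is a description and not a binding site. Of the 22 windows of the 8 members in the promoter table it stood in 2, this one and 1 window of TGFBR1.

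The type I receptor TGFBR1 (ENSG00000106799.12, chr9:101866319-101916474), a serine/threonine kinase, had its highest group mean in WT on 1 kPa. Its group means were 7.48 ± 1.35 FPKM on 40 kPa and 7.59 ± 1.27 FPKM on 1 kPa in RAP2 tKO. They were 8.95 ± 1.61 and 7.98 ± 1.35 FPKM in LATS dKO, 7.91 ± 0.461 and 7.12 ± 0.434 FPKM in YAP/TAZ dKO and 8.96 ± 0.853 and 9.99 ± 1.14 FPKM in WT, on 40 and 1 kPa in that order (SD, n = 3 each). Ranked by mean, the order was WT on 1 kPa, WT on 40 kPa, LATS dKO on 40 kPa, LATS dKO on 1 kPa, YAP/TAZ dKO on 40 kPa, RAP2 tKO on 1 kPa, RAP2 tKO on 40 kPa and YAP/TAZ dKO on 1 kPa, and the libraries of each neighbouring pair in it overlapped. Over both gels TGFBR1 was called lower in RAP2 tKO and in YAP/TAZ dKO, with log2 changes of -0.30 in each (limma adjusted p = 0.0458 and 0.0183), and not in LATS dKO (-0.15, limma adjusted p = 0.255).

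The TGFBR1 call in RAP2 tKO held in 8 of 19 settings. It was lost without replicate 1 of RAP2 tKO on either gel, replicate 2 of RAP2 tKO on 40 kPa, WT on 1 kPa replicate 1 or 2, or any WT library on 40 kPa (limma adjusted p between 0.0557 and 0.123). The YAP/TAZ dKO call held in 18 of 19, being lost after GC correction (-0.21, limma adjusted p = 0.0514). Compared on each gel, TGFBR1 in YAP/TAZ dKO stood at -0.16 on 40 kPa, not called (limma adjusted p = 0.41), and at -0.43 on 1 kPa (limma adjusted p = 0.0201), while in RAP2 tKO it was called on neither gel (-0.24 on 40 kPa and -0.36 on 1 kPa, limma adjusted p = 0.32 and 0.149). Genes around TGFBR1 lay in the same direction. Of the 57 genes tested within 5 Mb, 32 were called lower in RAP2 tKO with a median log2 change of -0.28, beside 8.57% of all genes called lower. The number called lower in YAP/TAZ dKO was 27 of the 57 with a median of -0.18, beside 27.0% of all genes, and in LATS dKO, where TGFBR1 was not called, also 27 with a median of -0.19, beside 17.8% of all genes. The part of the neighbourhood in these changes was not tested. Each line was set against the same WT libraries, so a lower level in the lines cannot be told apart from a higher level in WT.

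The type II receptor TGFBR2 (ENSG00000163513.17, chr3:30647993-30735634), which the ligand binds, was called higher in LATS dKO. It had 3.76, 3.61 and 3.58 FPKM there on 40 kPa, against 3.35, 3.15 and 3.19 FPKM in WT. On 1 kPa it had 4.02, 4.12 and 4.11 FPKM in LATS dKO and 3.21, 3.02 and 3.35 FPKM in WT. The lines did not overlap, the log2 change over both gels was 0.21 ± 0.0371 (SE; limma adjusted p = 0.000244), and the call held in all 19 settings. Compared on each gel the change was 0.14 on 40 kPa, not called (limma adjusted p = 0.0734), and 0.28 on 1 kPa (limma adjusted p = 0.000697). The size is small, a 1.15-fold difference, and the 36 genes tested within 5 Mb had a median of 0.12. Of these 36 genes 10 were called higher and 2 lower, beside 16.0% and 17.8% of all genes. The part of the neighbourhood in the TGFBR2 change was not tested. In RAP2 tKO TGFBR2 lay between 2.88 and 3.31 FPKM and in YAP/TAZ dKO between 3.17 and 3.59 FPKM, and neither line was called against WT (limma adjusted p = 0.624 and 0.2). No genotype was called for stiffness in either receptor (8 comparisons).

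SMAD3 (ENSG00000166949.15, chr15:67356100-67487533), a SMAD that the receptor phosphorylates, was highest in RAP2 tKO on 40 kPa with 23.4 ± 2.39 FPKM, and 19.2 ± 1.84 FPKM on 1 kPa. The WT means were 19.4 ± 1.74 FPKM on 40 kPa and 15.1 ± 1.08 FPKM on 1 kPa. Over both gels SMAD3 was called higher in RAP2 tKO by 0.29 ± 0.0793 (SE; limma adjusted p = 0.0166), a call lost only without RAP2 tKO on 1 kPa replicate 2 (limma adjusted p = 0.0506) among 19 settings. On each gel alone it was not called (0.26 on 40 kPa and 0.32 on 1 kPa, limma adjusted p = 0.172 and 0.101). The median of the 73 genes tested within 5 Mb was -0.04 there. In WT the 3 libraries on 40 kPa, between 18.0 and 21.3 FPKM, lay above the 3 on 1 kPa, between 13.9 and 15.9 FPKM. The log2 change of 0.34 was not called (limma adjusted p = 0.185). Leaving out both GC-skewed libraries, which leaves the WT values as they are and changes the common spread, gave a call (limma adjusted p = 0.0491).

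In YAP/TAZ dKO SMAD3 averaged 15.5 ± 1.23 FPKM on 40 kPa and 18.3 ± 2.37 FPKM on 1 kPa, a log2 change of -0.22 that was not called (limma adjusted p = 0.688). Its response differed from that of WT by -0.56 (95% interval -0.89 to -0.22; limma adjusted p = 0.19), a difference that was called without both GC-skewed libraries (limma adjusted p = 0.0407). On 40 kPa alone SMAD3 was lower in YAP/TAZ dKO than in WT by 0.31 on the log2 scale (limma adjusted p = 0.038), beside 37.7% of all genes called. LATS dKO means were 17.0 ± 2.24 FPKM on 40 kPa and 17.4 ± 1.64 FPKM on 1 kPa, with no call against WT (limma adjusted p = 0.986).

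SMAD6 (ENSG00000137834.14, chr15:66994565-67075186), the inhibitory SMAD known mainly for restraining BMP receptors, was called higher in LATS dKO. On 40 kPa it had 17.0, 39.7 and 30.04 FPKM in LATS dKO and 16.7, 13.9 and 14.2 FPKM in WT. On 1 kPa it had 18.5, 17.6 and 18.3 FPKM in LATS dKO and 11.0, 13.9 and 9.43 FPKM in WT. All 6 LATS dKO libraries lay above all 6 WT libraries, though by little in the GC-skewed replicate 1 on 40 kPa, whose 17.0 FPKM is the lowest of the line. The log2 change over both gels was 0.73 ± 0.185 (SE; limma adjusted p = 0.00463), called in all 19 settings, while the median of the 72 genes tested within 5 Mb was 0.01. Compared on each gel it was 0.83 on 40 kPa (limma adjusted p = 0.0279) and 0.63 on 1 kPa, not called (limma adjusted p = 0.0963).

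In RAP2 tKO SMAD6 had 21.2, 21.7 and 9.77 FPKM on 40 kPa and between 12.0 and 16.0 FPKM on 1 kPa. The lowest of these is again a GC-skewed library. With it the change with stiffness was 0.27 (limma adjusted p = 0.556), and without both GC-skewed libraries it was 0.63 (limma adjusted p = 0.0278). Likewise the stiffness change of SMAD6 in LATS dKO was 0.57 (limma adjusted p = 0.372) with all libraries and 0.89 (limma adjusted p = 0.0122) without both, and the RAP2 tKO difference from WT was 0.19 (limma adjusted p = 0.55) with all and 0.37 (limma adjusted p = 0.0144) without both. YAP/TAZ dKO means were 13.1 ± 1.37 FPKM on 40 kPa and 11.2 ± 1.70 FPKM on 1 kPa, and no call was made against WT (limma adjusted p = 0.662).

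The SMAD6 promoter window of RefSeq (GRCh38.p14, plus strand, chr15:66701986-66702235) is shown because it was the only one of the 22 member windows to hold the SMAD-binding palindrome, GTCTAGAC, which reads the same on both strands. Capitals mark it, 12 bases before the transcription start.
SMAD6: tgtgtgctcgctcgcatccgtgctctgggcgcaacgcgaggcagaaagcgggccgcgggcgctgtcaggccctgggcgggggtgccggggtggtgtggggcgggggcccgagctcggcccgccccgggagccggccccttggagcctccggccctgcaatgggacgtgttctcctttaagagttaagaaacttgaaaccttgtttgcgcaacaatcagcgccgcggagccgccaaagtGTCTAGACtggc
The palindrome stood in 64 of 35116 windows of 250 bases (0.182%). The match describes the letters of this window and says nothing of binding in these cells.

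SKI (ENSG00000157933.9, chr1:2160133-2241558) and SKIL (ENSG00000136603.13, chr3:170075465-170114623) encode related corepressors that bind SMAD proteins and silence their targets, and SKIL is itself induced by them in a negative loop. SKI was not called in any of the 10 comparisons. Its most extreme libraries on 40 kPa were the GC-skewed ones, with 25.6 FPKM in RAP2 tKO beside 78.7 and 74.8 FPKM in the other replicates, and 41.1 FPKM in LATS dKO beside 73.7 and 70.5 FPKM. The other SKI libraries lay between 50.4 and 85.9 FPKM over all genotypes. In LATS dKO, where SKI stood at -0.27 over WT (limma adjusted p = 0.357), the 95 genes tested within 5 Mb had a median of -0.31. Of these 95 genes 46 were called lower (48.4%), beside 17.8% of all genes. The part of the neighbourhood in the SKI value was not tested.

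The 6 lowest SKIL libraries of the 24 were those of YAP/TAZ dKO. On 40 kPa it had 6.53, 6.69 and 5.004 FPKM in YAP/TAZ dKO, against 9.04, 8.84 and 10.1 FPKM in WT. On 1 kPa it had 4.53, 4.83 and 5.13 FPKM in YAP/TAZ dKO and 8.57, 10.2 and 11.9 FPKM in WT. The highest YAP/TAZ dKO library, at 6.69 FPKM, lay under the lowest WT library, at 8.57 FPKM. Over both gels the log2 change was -0.75 ± 0.0837 (SE; limma adjusted p = 5.3e-07), called in all 19 settings.

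The genes around SKIL were lower in the same line. Of the 25 genes tested within 5 Mb, 21 were called lower in YAP/TAZ dKO (84%) with a median log2 change of -0.63, and within 30 Mb it was 185 of 230 (80.4%) with a median of -0.64. Over all genes tested 27.0% were called lower in that line. In RAP2 tKO and LATS dKO the same 230 genes had medians of 0.09 and -0.04. SKIL itself lay within the range of its neighbours, and 86 of the 230 were lower still. WWTR1, a gene knocked out in this line, is among the 230, at -20.75 Mb from SKIL, with a log2 change of -1.29. How far the SKIL level follows from its chromosome segment was not tested, and the segment and the loss of YAP and TAZ cannot be told apart in this line.

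**Figure D3:**
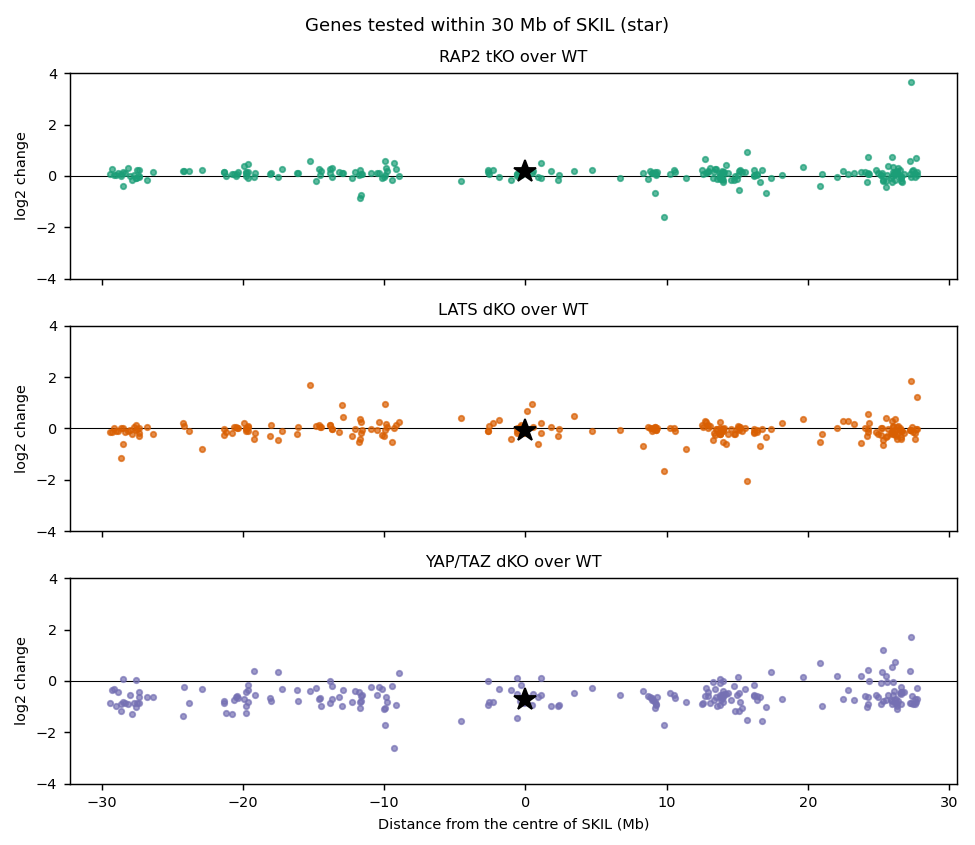
Log2 change of FPKM + 1 over WT (y axis) of the 230 genes tested within 30 Mb of SKIL, by distance from the centre of SKIL in Mb (x axis), 1 panel for each knockout line; the star is SKIL. In YAP/TAZ dKO most points lie below 0, with a median of -0.64, while the other lines centre near 0.

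In LATS dKO SKIL had 12.2, 9.77 and 10.0 FPKM on 40 kPa and 7.35, 8.17 and 7.28 FPKM on 1 kPa. The 12.2 FPKM is from a GC-skewed library, and SKIL is among the most GC-poor genes tested. The groups did not overlap, but the log2 change of 0.44 was not called (limma adjusted p = 0.103), nor was its difference from the WT response (0.55, 95% interval 0.19 to 0.90; limma adjusted p = 0.249). On 1 kPa alone SKIL was lower in LATS dKO than in WT by 0.38 on the log2 scale (limma adjusted p = 0.0289), beside 21.8% of all genes called. RAP2 tKO means were 12.1 ± 1.37 FPKM on 40 kPa and 10.1 ± 0.989 FPKM on 1 kPa, with no call for stiffness or against WT (limma adjusted p = 0.259 and 0.212). The highest RAP2 tKO library, at 12.9 FPKM, is the other GC-skewed one, and the next stood at 12.8 FPKM.

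Counted over the lines, 3 of the 9 genes were called against WT in each knockout. With any 1 of the compared libraries left out, the RAP2 tKO count fell to 1 or 2. Those of LATS dKO and YAP/TAZ dKO stayed at 3. In RAP2 tKO the 3 genes were TGFB2 and SMAD3 higher and TGFBR1 lower, where 16.0% of all genes tested were called. In LATS dKO they were TGFB2, SMAD6 and TGFBR2, all higher, where 33.9% of all genes were called and 16.0% were called higher. In YAP/TAZ dKO they were TGFB1 higher and SKIL and TGFBR1 lower, where 50.6% of all genes were called, a larger share than among the 9. The median log2 change of the 9 genes was 0.16 in RAP2 tKO, 0.0032 in LATS dKO and -0.03 in YAP/TAZ dKO, beside -0.00020, -0.01 and 0.00097 over all genes. These 3 comparisons share the WT libraries.

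**Figure D4:**
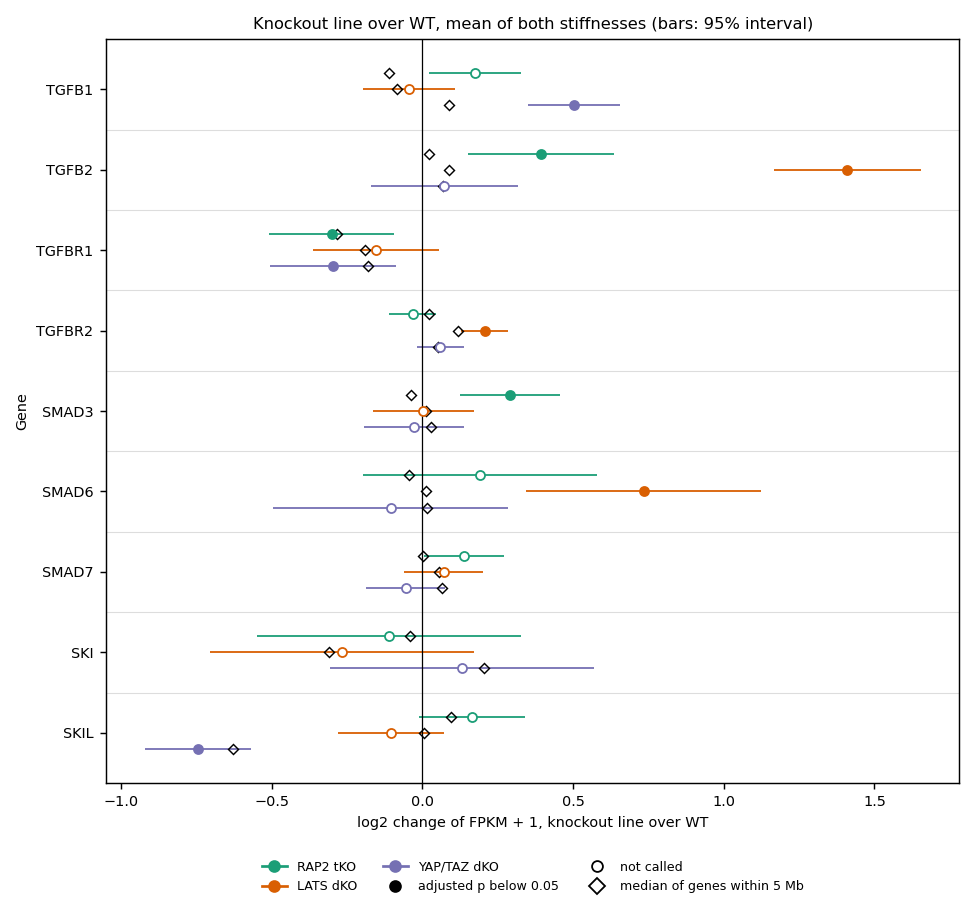
Log2 change of FPKM + 1 of each knockout line over WT, mean of both gels (x axis), for each gene (y axis), with 95% intervals; filled points have an adjusted p below 0.05 and diamonds give the median of the genes tested within 5 Mb. TGFB2 in LATS dKO lies at 1.41 with its neighbours near 0, whereas SKIL in YAP/TAZ dKO lies at -0.75 beside a diamond at -0.63.

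A wider list of 55 pathway genes, of which 47 were tested, was read in the same comparisons. It was chosen with earlier results of these data known, so its shares are a description. With stiffness 1 of 47 was called in WT, BHLHE40, a transcription factor gene reported as a target of the pathway, which averaged 4.31 FPKM on 40 kPa and 6.59 FPKM on 1 kPa (-0.52, limma adjusted p = 0.00617). In RAP2 tKO 4 of 47 were called (8.51%), beside 3.87% of all genes. All 4 were lower, beside 2.88% of all genes called lower. They were BHLHE40 (2.86 FPKM on 40 kPa and 6.07 FPKM on 1 kPa), the cell cycle inhibitor CDKN1A (10.3 and 15.5 FPKM in that order), the early TGF-beta response gene KLF10 (5.83 and 8.33 FPKM) and INHBB, an activin subunit (0.542 and 0.895 FPKM). Both INHBB means lie below 1 FPKM, its call was narrow (limma adjusted p = 0.0475), and it was tested only through its level in YAP/TAZ dKO. Calls of the wider list were not recomputed under the other settings. In LATS dKO and YAP/TAZ dKO 0 of 47 were called for stiffness, and 0 in each test of a difference from WT.

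Against WT 8 of 47 were called in RAP2 tKO (17.0%), 4 higher and 4 lower. The ligand gene BMP4 averaged 10.5 FPKM in RAP2 tKO and 6.29 FPKM in WT, and THBS1, whose product activates latent TGF-beta, averaged 0.989 FPKM in RAP2 tKO and 0.262 FPKM in WT. Both THBS1 means lie below 1 FPKM, and its RAP2 tKO and WT libraries overlapped. Lower were CDKN2B, a cell cycle inhibitor, with 6.56 FPKM in RAP2 tKO and 9.06 FPKM in WT, and ID2, an inhibitor of helix-loop-helix factors, with 51.9 FPKM in RAP2 tKO and 67.1 FPKM in WT. Of the 8 reported targets tested, 4 were called lower and 0 higher, beside 8.57% of all genes called lower. That list includes ID1, a target of BMP signalling, and leaves out the members SMAD7 and SKIL, which are early targets of TGF-beta. These stood at log2 changes of 0.14 and 0.16 in RAP2 tKO and were not called.

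In LATS dKO 19 of 47 were called (40.4%), 5 higher and 14 lower. THBS1 averaged 5.13 FPKM in LATS dKO and 0.262 FPKM in WT (log2 change 2.27, limma adjusted p = 1.01e-09). BMP4 averaged 25.4 FPKM in LATS dKO and 6.29 FPKM in WT (1.86, limma adjusted p = 3.21e-12). ITGB8, the beta subunit of an integrin that activates latent TGF-beta, averaged 1.92 FPKM in LATS dKO and 0.659 FPKM in WT. THBS1 and ITGB8 reached 1 FPKM in all 6 LATS dKO libraries, 3 of RAP2 tKO and none of the other lines, so they were tested through the lines in which they are high. Among the reported targets 5 of 8 were called lower and 0 higher, beside 17.8% of all genes called lower, with BHLHE40 at 2.25 FPKM in LATS dKO and 5.45 FPKM in WT. The members SMAD7 and SKIL, outside that list, stood at log2 changes of 0.07 and -0.10 and were not called. Of the 9 other receptors tested 2 were lower and of the 5 other SMADs 0 were called.

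In YAP/TAZ dKO 24 of 47 were called (51.1%), 12 in each direction. ID1, a target of BMP signalling, averaged 16.7 FPKM in YAP/TAZ dKO and 34.0 FPKM in WT. Among the 8 reported targets 4 were called higher and 2 lower, beside 3738 of all 15828 genes called higher and 4270 called lower. Of the members that are targets, SKIL was called lower there and SMAD7 was not called. SNAI2, a transcription factor gene of epithelial-mesenchymal transition, averaged 1.09 FPKM in YAP/TAZ dKO and 0.184 FPKM in WT. SNAI2 and INHBB reached the 1 FPKM in 3 libraries needed for testing only through YAP/TAZ dKO, so their calls as higher there, 2 of the 12, follow in part from that filter. SNAI2 is also among the 4 reported targets called higher. PMEPA1, a feedback inhibitor of the pathway, averaged 3.34 FPKM in YAP/TAZ dKO and 1.70 FPKM in WT. The type II activin receptor gene ACVR2B averaged 9.28 FPKM in YAP/TAZ dKO and 5.42 FPKM in WT. Beside these shares of the list stand 16.0% of all genes called in RAP2 tKO, 33.9% in LATS dKO and 50.6% in YAP/TAZ dKO.

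For members whose 8 group means spanned at least 0.5 on the log2 scale, the genes with the most similar pattern were sought among about 10447 others, as the root mean square difference of the centred group means. This is a description over 8 groups that share their libraries. Nearest to TGFB2 were DUSP1, a MAP kinase phosphatase gene (0.114), PDE5A (0.142) and C1orf198 (0.157). Nearest to SMAD6 were GPC4, a glypican gene (0.115), MOSPD1 (0.144) and MPP5 (0.150), and nearest to SMAD7 were TAF13, a subunit gene of TFIID (0.0891), PPIAP9 (0.103) and KIAA1033 (0.128).

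Nearest to TGFB1 were ZNF395 (0.0766), ZNF362 (0.0900) and CHTF18 (0.0935). Nearest to SMAD3 were SETD8 (0.0860), TCP1 (0.0910) and SMARCD1 (0.0961), and nearest to SKI were PCGF3 (0.0596), LRFN3 (0.0597) and PIP5K1C (0.0603). The 3 nearest to SKIL were COPB2 (0.0902), MFN1 (0.0951) and PIK3CA (0.1002), all of them on chromosome 3 as SKIL is.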

How the data were processed

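Messenger RNA of 24 HEK293A libraries was analysed from gene tables. Per the submitters' processing notes, STAR 2.4.2a and Cufflinks 2.2.1 were used on hg19, and per the file headers the authors deposited FPKM values with a status and a 95% interval per gene. For the annotation release and strand setting nothing was given in the sources used here, so overlapping genes may share fragments. Kits of index sets A and B were used, not assigned to libraries, so no batch could be tested. FPKM of 338 symbols on several entries were summed, and 92 symbols with a failed status were left out. All 37 mitochondrial entries were listed at 0.

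Tested were genes that reached 1 FPKM in 3 or more libraries, on log2(FPKM + 1) with limma 3.58.1 in R 4.3.3, in a fit of all 24 libraries with a mean for each group (16 residual degrees of freedom), a mean-variance trend, two-sided p-values and Benjamini-Hochberg adjustment within each of 10 comparisons. The procedure was tested on simulated data with independent noise, which lack the GC-linked shifts of the real libraries. Depth was estimated from the width of the deposited intervals of 401 to 480 genes a library. Neighbours were taken by hg19 coordinates, and promoters come from RefSeq (8 of 9 members matched). The members and gene lists were chosen with earlier results of these data known. Named were the members, up to 4 called genes of the wider list with the largest change in each comparison, the 3 genes most like each member, and the targeted genes.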

Additional observations from a re-analysis of the deposited data

How the results depend on the processing

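Changes of the 9 members were recomputed with a pseudocount of 0.1, without a filter on low values, scaled to a common median ratio, without both GC-skewed libraries, in fits of the compared groups only, with a replicate block, and without each library in turn. A correction for GC content and the genotype differences on 1 kPa only and on 40 kPa only were chosen after seeing the data. Of 1548 values of a member under another setting, 41 lost a call and 9 gained one. A called change never turned its sign; 96 uncalled values had the other sign, the largest of them 0.26 in size. Where no cause is named below, the cause was not tested.

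Members called numbered 2 in WT and 1 in LATS dKO for stiffness, and 1 for the YAP/TAZ dKO difference in response, without both GC-skewed libraries. In fits of the compared groups only, where fewer samples estimate the spread, they numbered 0 in WT and 0 in RAP2 tKO for stiffness and 1 for the RAP2 tKO genotype. For that genotype 1 was called without a filter, 1 on 1 kPa only and 1 on 40 kPa only. Leaving out a library gave 1 to 3 members in RAP2 tKO for stiffness and 1 to 2 for its genotype difference, and moved no other count of members. Without RAP2 tKO on 1 kPa replicate 1 only TGFB1 was called for stiffness there.

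Over all genes, calls for stiffness without both GC-skewed libraries numbered 1006 in WT (156 with the settings reported), 472 in LATS dKO (112) and 391 in YAP/TAZ dKO (55), and those for the difference in response 20 in RAP2 tKO (8), 211 in LATS dKO (10) and 413 in YAP/TAZ dKO (62). The RAP2 tKO genotype had 4362 (2528). After GC correction stiffness gave 435 in WT, 964 in RAP2 tKO (612) and 110 in YAP/TAZ dKO, and differences in response 38 in LATS dKO and 146 in YAP/TAZ dKO. Compared groups only gave 45, 8 and 2 for stiffness in WT, RAP2 tKO and LATS dKO, and for the differences 4 in RAP2 tKO, 5 in LATS dKO and 273 in YAP/TAZ dKO. Without a filter 387 genes were called for stiffness in RAP2 tKO, and 13 and 22 for the differences in RAP2 tKO and LATS dKO; with a pseudocount of 0.1 the RAP2 tKO difference had 3. Scaled to a common median ratio LATS dKO had 49 for stiffness and 20 for its difference. On 1 kPa only the genotype calls were 1077 in RAP2 tKO and 3450 in LATS dKO (5364), and on 40 kPa only 1432 and 3530. Scaling also moved the split of higher and lower stiffness calls, to 127 and 75 in WT (51 and 105 as reported), 374 and 311 in RAP2 tKO (156 and 456) and 15 and 34 in LATS dKO (14 and 98), while the median of all genes moved by less than 0.1. For the difference in response it gave 38 and 36 in YAP/TAZ dKO (41 and 21) and 3 and 17 in LATS dKO (3 and 7). After GC correction the stiffness splits were 248 and 187 in WT, 528 and 436 in RAP2 tKO, and 39 and 41 in LATS dKO. Those of the differences were 16 and 22 in LATS dKO and 71 and 75 in YAP/TAZ dKO. Without 1 library stiffness gave 46 to 104 calls in WT, 258 to 1141 in RAP2 tKO, 17 to 255 in LATS dKO and 29 to 43 in YAP/TAZ dKO. The differences gave 5 to 12 in RAP2 tKO, 7 to 63 in LATS dKO and 40 to 53 in YAP/TAZ dKO, and the genotypes, in the same order, 2077 to 2957, 4818 to 5445 and 7511 to 7616.

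Samples of the same replicate number mostly did not deviate together: 3 of 84 pairs of libraries had a correlation of deviations over 0.1 (range -0.25 to 0.15). No pairing by number was seen, but this measure cannot exclude one, since the deviations also follow GC content in some libraries. With the replicate block the stiffness calls in LATS dKO numbered 57, and TGFB2 for stiffness and TGFBR1 for genotype in RAP2 tKO were not called (limma adjusted p = 0.0527 and 0.0568). Precision is limited by 3 libraries a group and, for TGFB2, by its low level.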

Other observations

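Some genes of the wider pathway list were too low to be tested. TGFBI, a widely used target of TGF-beta signalling, reached at most 1.42 FPKM in any of the 24 libraries. The activin gene INHBA stayed at or below 0.0561 FPKM and the coreceptor gene ENG at or below 0.270 FPKM. In contrast FKBP1A, whose product binds the type I receptor, averaged 198.4 FPKM over all libraries, the ID3 gene 171.5 FPKM and SMAD4, the common partner of the receptor-activated SMADs, 46.6 FPKM. These values were read after the lists were known and belong to no comparison.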
